A study of Mus musculus with 10 samples.

Results

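The 37 genes of the mouse mitochondrial chromosome were followed through 10 RNA-sequencing libraries of utricular supporting cells. They were taken as every gene that the annotation places on chromosome M, all of which carry symbols beginning with mt-, out of 48709 genes listed in each table. They comprised 2 ribosomal RNAs, 13 messenger RNAs and 22 transfer RNAs. The cells came from utricles of mice at postnatal day 21 (P21) that carried the Lfng-EGFP reporter, in which the Lfng gene's control regions drive GFP in supporting cells, were cultured as whole organs, and were sorted as GFP-positive cells by flow cytometry. Control utricles received the solvent alone, 0.1% DMSO, for 5 days. Treated utricles received 10 μM TRULI, an inhibitor of the Lats kinases that restrain the transcriptional co-activator Yap, for 5 days. In the withdrawal groups, utricles were kept for 5 further days without compound after 5 days of DMSO or of TRULI, for 10 days in culture in all. The study's methods call the replicates biological, and do not say whether each came from separate animals or pools of utricles, so the p-values measure the spread between these libraries.

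Mitochondria keep a small genome of their own, which is transcribed along both strands into long precursors that are then cut at the transfer RNAs. The messenger RNAs encode membrane subunits of respiratory complexes I, III and IV and of ATP synthase, and the ribosomal and transfer RNAs serve the translation of those messengers inside the organelle. Every other protein of the organelle, including the enzymes that copy, transcribe and process this genome, is encoded in the nucleus. Supporting cells are the non-sensory cells that surround the hair cells in the utricle, an organ of balance in the inner ear.

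The condition given by the sample label differed from the condition in the name of the deposited table for 4 of the 10 libraries. The tables of TRULI replicates 1 and 2 at 5 days carry the names of control withdrawal replicates 1 and 2. Those of control withdrawal replicates 1 and 2, in turn, carry the names of TRULI replicates 2 and 3 at 5 days. The other 6 libraries, which are the 3 controls at 5 days, TRULI replicate 3 at 5 days and both TRULI withdrawal libraries, had the same condition in both. Libraries were grouped by label, and the result for the groups of the deposited names is given beside each labelled result. Both assignments cannot be right for those 4 libraries, and which one is right was not settled here. In the lists of values below, libraries are ordered as the 3 controls at 5 days, the 3 named TRULI at 5 days, the 2 named control withdrawal and the 2 named TRULI withdrawal.

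The tables summed to between 2463872 and 6255149 expected counts per library, and between 14281 and 17076 genes were detected. All 10 listed supporting-cell markers, among them Lfng, Sox2 and Slc1a3, had counts in the groups of the deposited names, except Hes5, which was at 0 in both libraries named control withdrawal. Their sum was 6415 to 10399 CPM (counts scaled to a common library size, here the counts other than mitochondrial rRNA) in the 6 libraries named 5 days and 1718 to 2513 CPM in the 4 named withdrawal. The 12 hair-cell markers summed to 177.2 to 971.8 CPM and 49.8 to 1015 CPM, and those of fibroblasts to 25.4 to 159.4 CPM and 34.7 to 136.2 CPM. The 4 markers of Schwann cells and glia summed to 66.4 to 104.8 CPM and 61.9 to 154.2 CPM. The 5 melanocyte markers summed to 10.8 to 17.1 CPM and 0.33 to 7.70 CPM, with Tyr, Tyrp1 and Mlana at 0 in all libraries. The 5 immune markers stayed at or under 17.4 CPM, the 4 endothelial markers at or under 3.19 CPM and the 4 red-cell markers at or under 0.33 CPM. The summed supporting-cell and melanocyte markers divided the libraries in the same way as the mitochondrial results below, and their part in those results was not tested.

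The sequences of the genes on which the results turn are shown first, from GENCODE M21 on the GRCm38 build and read 5′ to 3′. The last 60 bases of both ribosomal RNAs are shown because the labels describe a selection for poly(A) tails, while the methods of the study name a single-cell RNA library kit; which applied to these libraries is not given in the sources used here. mt-Rnr1, the RNA of the small mitoribosomal subunit, lies at chrM:70-1024, and mt-Rnr2, the RNA of the large subunit, at chrM:1094-2675, both on the plus strand with the transfer RNA mt-Tv between them. The longest run of A within mt-Rnr1 was 5 bases and within mt-Rnr2 7 bases.
mt-Rnr1 end, chrM:965-1024: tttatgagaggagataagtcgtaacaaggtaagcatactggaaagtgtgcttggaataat
mt-Rnr2 end, chrM:2616-2675: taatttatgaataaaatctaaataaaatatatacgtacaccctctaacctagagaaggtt

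mt-Atp8 and mt-Atp6, which encode subunits of ATP synthase, overlap by 43 bases, shown in capitals in the whole mt-Atp8 gene at chrM:7766-7969, plus strand. mt-Atp6 also has a copy in the nuclear genome, Gm10925, an annotated pseudogene that matched it at 678 of 678 aligned bases. The first 120 bases of both are shown because reads of this stretch fit either gene equally well.
mt-Atp8: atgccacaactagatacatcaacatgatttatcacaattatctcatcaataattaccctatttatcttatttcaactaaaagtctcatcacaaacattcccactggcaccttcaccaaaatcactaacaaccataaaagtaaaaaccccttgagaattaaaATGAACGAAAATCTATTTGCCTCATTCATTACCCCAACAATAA
mt-Atp6 start, chrM:7927-8046, plus strand: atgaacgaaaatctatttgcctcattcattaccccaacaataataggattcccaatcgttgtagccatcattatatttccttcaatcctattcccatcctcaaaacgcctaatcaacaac
Gm10925 start, chr1:24614532-24614651, minus strand: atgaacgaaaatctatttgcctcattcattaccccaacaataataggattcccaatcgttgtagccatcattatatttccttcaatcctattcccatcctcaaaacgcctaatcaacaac

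All 22 transfer RNAs were listed at 0 in every library. They are 59 to 75 bases long, and the tables give each of them an effective length of 0, the effective length being the number of positions at which a fragment of the library's size could start. The same held for 5988 genes of up to 162 bases, none of which had a count. The zeros of the transfer RNAs are therefore not measurements of their level. The shortest and the longest, chosen for their length alone, are shown to give the scale.
mt-Ts2, chrM:11613-11671, plus strand: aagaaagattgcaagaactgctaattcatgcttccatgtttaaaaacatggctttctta
mt-Tl1, chrM:2676-2750, plus strand: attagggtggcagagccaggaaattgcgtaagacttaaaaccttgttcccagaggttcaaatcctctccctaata

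The 15 remaining genes held between 2.09% and 28.2% of all counts in a library. Per length, as CPM of all counts divided by the effective length in kilobases (FPKM), mt-Rnr2 was the highest, with a median of 1.0856e+05 and a range of 10734 to 1.9519e+05 over the 10 libraries. The messenger with the highest level per length was mt-Co1, which encodes the catalytic subunit of complex IV, with a median of 6215 FPKM and a range of 3006 to 8773. It was followed by mt-Co3, another complex IV subunit, with a median of 1452 FPKM and a range of 773 to 2423. The ranges of mt-Co1 and mt-Co3 did not overlap. mt-Rnr1 came next with a median of 986 FPKM and a range of 201 to 2171, and mt-Cytb, the complex III subunit cytochrome b, with a median of 886 FPKM. From mt-Co3 down to mt-Nd2, a complex I subunit with a median of 160 FPKM, every pair of neighbours in the order had overlapping ranges.

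The level of mt-Atp8 depended on the length used. It ranked 7 of 15 by effective length, with a median of 684 FPKM over an effective length of about 13.02 bases, and 13 of 15 by its full length of 204 bases, with a median of 42.2. The lowest were 2 further complex I subunits, mt-Nd3 with a median of 10.9 FPKM and counts in 5 of 10 libraries, and mt-Nd4l with a median of 0 and counts in 3 of 10. mt-Rnr1 and mt-Rnr2 are cut from the same precursor, and mt-Rnr2 held 94.9 to 232.7 counts for each count of mt-Rnr1. This ratio was 147.6 to 232.7 in the 6 libraries named 5 days and 94.9 to 172.6 in the 4 named withdrawal, which overlap.

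**Figure D1:**
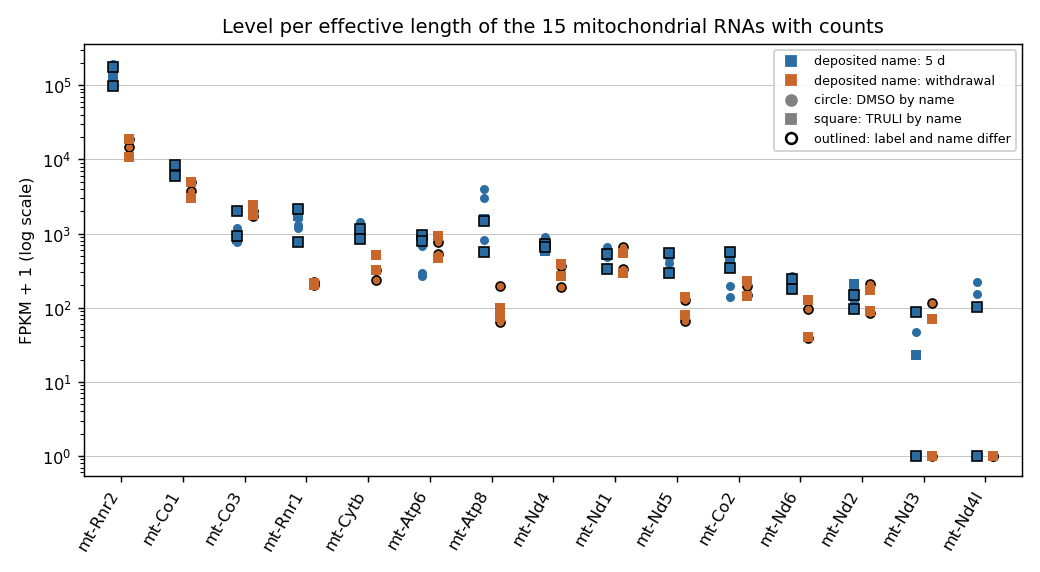
FPKM plus 1 on a log axis, by effective length, for the 15 mitochondrial RNAs with counts, ordered by median. Each point is 1 library, coloured by the day in its deposited name; mt-Rnr2, with a median of 1.0856e+05 FPKM, lies above every other RNA in all libraries.

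mt-Rnr1 and mt-Rnr2 together took 16.9%, 26.6% and 16.3% of all counts in the 3 controls at 5 days. They took 18.6%, 23.8% and 13.1% in the libraries named TRULI at 5 days, 2.00% and 2.54% in those named control withdrawal, and 1.47% and 2.52% in the TRULI withdrawal libraries. The 95% Wilson interval of such a share was at most 0.0937 percentage points wide and covers counting error only. All 6 libraries named 5 days were above all 4 named withdrawal. Grouped by label, the libraries labelled TRULI at 5 days held both low values and 1 high value.

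The 13 messengers took 1.27%, 1.62% and 1.20% of all counts in the controls at 5 days. They took 1.34%, 1.62% and 1.13% in the libraries named TRULI at 5 days, 0.697% and 0.972% in those named control withdrawal, and 0.624% and 0.999% in the TRULI withdrawal libraries. With both rRNAs left out of the total, the messenger share was 1.52%, 2.21% and 1.44% in the controls at 5 days. It was then 1.64%, 2.13% and 1.30% in the libraries named TRULI at 5 days, 0.711% and 0.997% in those named control withdrawal, and 0.633% and 1.025% in the TRULI withdrawal libraries. In each total the 4 libraries named withdrawal were below the other 6.

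The ratio of rRNA to messenger counts needs no library total. It was 13.3, 16.3 and 13.6 in the controls at 5 days and 13.9, 14.7 and 11.6 in the libraries named TRULI at 5 days. It was 2.88 and 2.62 in those named control withdrawal and 2.35 and 2.52 in the TRULI withdrawal libraries.

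**Figure D2:**
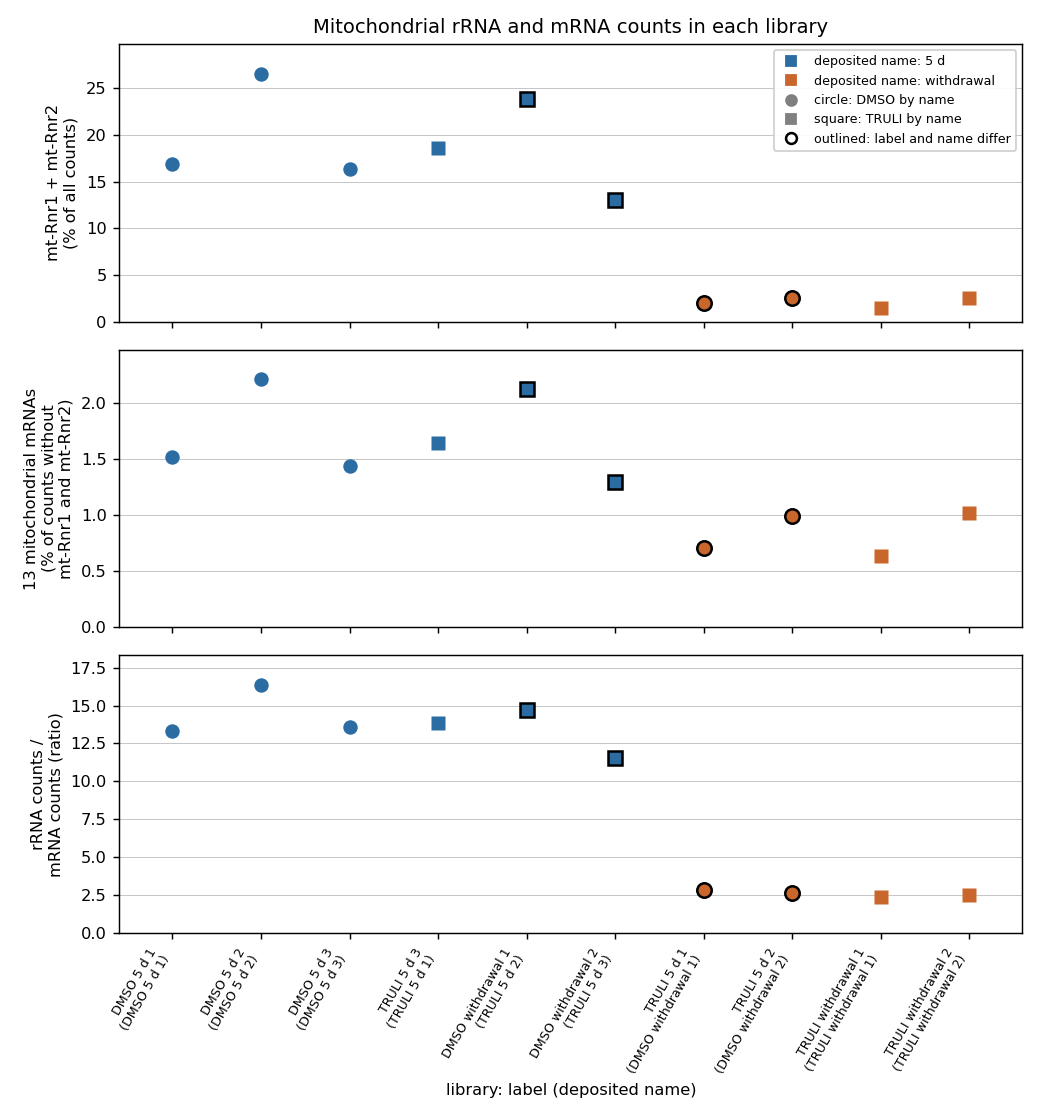
Share of mt-Rnr1 and mt-Rnr2 in all counts (%), share of the 13 mitochondrial messengers in counts without those rRNAs (%) and ratio of rRNA to messenger counts, 1 point per library, with the label and, in brackets, the deposited name under each. The rRNA share is 13.1% to 26.6% in the 6 libraries named 5 days and 1.47% to 2.54% in the 4 named withdrawal.

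The first comparison asked whether these RNAs differed between TRULI-treated and control cells after 5 days. By label, the rRNA share was 7.70% ± 9.41 (SD, n = 3) with TRULI and 19.9% ± 5.76 (SD, n = 3) in controls, a mean log2 difference of -2.09 (exact permutation test, two-sided, p = 0.30, adjusted p = 0.444 over 12 tests). The messenger share differed by -0.48 of all counts and by -0.68 without rRNA on the log2 scale, with the same p of 0.30. A comparison of 3 with 3 libraries cannot reach below 0.10 in this test. In the groups of the deposited names, the rRNA share was 18.5% ± 5.37 with TRULI and 19.9% ± 5.76 in controls, a log2 difference of -0.11 (exact permutation p = 0.80). The messenger share then differed by -0.0036 of all counts and by -0.030 without rRNA (exact permutation p = 0.90 for both). In bulk RNA, fewer cells of a type and less RNA per cell cannot be told apart in any of these shares.

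Genes were tested with edgeR (quasi-likelihood F test, p-values adjusted over all genes by Benjamini-Hochberg). Of the members, 0 of the 13 mitochondrial genes tested at 5 days by label had an adjusted p under 0.05, against 0.00903% of all genes. None of them had an unadjusted p under 0.05, and DESeq2 called 0. Their median log2 fold change was -0.997, beside 0.05 over all genes. mt-Rnr2 was at -1.46 (SE 0.91) and mt-Rnr1 at -1.03 (SE 0.75). Without the library labelled TRULI replicate 3, which left both libraries named control withdrawal as the treated group, 7 of 15 were lower and called, against 8.24% of all genes lower. Those were mt-Rnr1, mt-Rnr2, mt-Atp8, mt-Nd4, mt-Nd5, mt-Nd6 and mt-Cytb. Of these, mt-Atp8 had only 5 and 8 counts in the treated group. Leaving out the 4 libraries of differing condition left 1 TRULI library against 3 controls, so the spread came from the controls alone and the lone library was assumed to vary like them. In that fit mt-Rnr2 was at -0.24 and mt-Rnr1 at 0.19, and edgeR called 0 of 15 members, against 1.09% of all genes, with 2 at an unadjusted p under 0.05. The rRNA share then differed by -0.064 on the log2 scale.

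By deposited name, 0 of 15 were called at 5 days, against 3.28% of all genes, and 2 had an unadjusted p under 0.05. Their median log2 fold change was -0.20, beside 0.03 over all genes. With the replicate number in the deposited names as a block, edgeR called 2 of 15, against 9.73% of all genes. These shares are close, so the 2 calls are not a result particular to the members. In that fit mt-Atp6 was higher with TRULI, with a log2 fold change of 1.15 (SE 0.23, adjusted p = 0.00875), and mt-Atp8 was lower, at -1.20 (SE 0.28, adjusted p = 0.0192). mt-Atp8 had 30 to 151 counts in these libraries, over an effective length of about 13.02 bases. DESeq2 called mt-Atp6 alone, and so did edgeR without control replicate 1 (1.56, adjusted p = 0.0187), against 2.08% of all genes. On the TMM-scaled CPM used for single members from here on, mt-Atp6 stood at 307.7, 150.3 and 112.3 CPM in the controls and at 398.1, 413.6 and 336.7 CPM in the 3 named TRULI, without overlap. It was the only 1 of 15 members without overlap there, and the share of all genes without overlap was not computed. With the counts of its nuclear copy added the direction turned, to -0.62 (SE 0.33, adjusted p = 0.388 by edgeR without the block).

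The second comparison asked whether TRULI and control cells differed after withdrawal. By label, the rRNA share was 1.99% ± 0.74 (SD, n = 2) with TRULI and 18.4% ± 7.59 (SD, n = 2) in controls, a log2 difference of -3.20. The messenger share without rRNA was 0.83% ± 0.28 and 1.71% ± 0.58, a log2 difference of -1.05. The groups did not overlap in either, and with 2 against 2 libraries the exact permutation test can give no p below 0.333, the value found for both. By edgeR, 2 of 14 mitochondrial genes were called by label, against 2.07% of all genes, and both were lower, against 1.06% of all genes lower. They were mt-Rnr2, with a log2 fold change of -3.12 (SE 0.53, adjusted p = 0.0425), and mt-Rnr1, at -2.77 (SE 0.52, adjusted p = 0.0459). Among messengers, mt-Atp8 was at -3.45 (SE 0.89, adjusted p = 0.0770) and mt-Nd5 at -1.86 (SE 0.48, adjusted p = 0.0770), which edgeR did not call. Without the library labelled control withdrawal replicate 1, 1 of 14 was called, mt-Rnr2, against 0.0609% of all genes. Without TRULI withdrawal replicate 1, 5 of 15 were called lower, against 12.8% of all genes, and without TRULI withdrawal replicate 2, 10 of 15 were, against 8.25%. Both control libraries in this labelled comparison are among the 4 of differing condition, so it could not be made without them. It sets libraries named TRULI at 5 days against TRULI withdrawal libraries, which also enter the contrast of days by name below.

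By deposited name, the rRNA share after withdrawal was 1.99% ± 0.74 with TRULI and 2.27% ± 0.38 in controls (n = 2 each), a log2 difference of -0.23 (exact permutation p = 0.667). The ratio of rRNA to messengers was 2.43 ± 0.12 and 2.75 ± 0.18, without overlap (exact permutation p = 0.333, the smallest possible). The messenger share without rRNA differed by -0.06 on the log2 scale (exact permutation p = 1). edgeR called 0 of 13 mitochondrial genes, against 0.0% of all genes, where 532 genes and none of the 13 had an unadjusted p under 0.05. DESeq2 also called 0 of the 13. Their log2 fold changes lay between -0.81 for mt-Nd3 and 0.55 for mt-Cytb. Whether the effect of TRULI differed between 5 days and withdrawal was tested as an interaction in edgeR, and 0 of 15 mitochondrial genes were called, by label against 0.0% of all genes and by deposited name against 0.0%. None of the 15 had an unadjusted p under 0.05 in either grouping, and DESeq2 called 0 in both.

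The third comparison set withdrawal, at 10 days in culture, against 5 days, with treatment as a term. By label, the rRNA share was 10.2% ± 10.5 (SD, n = 4) at 10 days and 13.8% ± 9.66 (SD, n = 6) at 5 days, a log2 difference of -0.69 (exact permutation within treatment, p = 0.43), and the ranges overlapped. edgeR called 0 of 15 mitochondrial genes, against 0.0% of all genes. Of the 15, 1 had an unadjusted p under 0.05, as did 703 of all genes, and DESeq2 called 0 of the 13 it tested.

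By deposited name, the rRNA share was 2.13% ± 0.51 (SD, n = 4) at 10 days and 19.2% ± 5.04 (SD, n = 6) at 5 days, a log2 difference of -3.16. The messenger share differed by -0.74 of all counts and by -1.02 without rRNA, and the ratio of rRNA to messengers by -2.42. In each of these 4 measures the 4 libraries named withdrawal were lower than all 6 named 5 days (exact permutation within treatment, two-sided, p = 0.01, the smallest that 100 regroupings allow, adjusted p = 0.03 over 12 tests). Both sides of this contrast held DMSO and TRULI libraries, but those named withdrawal had 5 further days in culture without compound. Longer culture and removal of the compound or solvent cannot be told apart here. Nor can either be told apart from any separate preparation or sequencing of the libraries named withdrawal, which was not examined. All the libraries named withdrawal were also those with the lower sums of supporting-cell markers, whose part was not tested. edgeR called 11 of 15 mitochondrial genes by deposited name, against 35.4% of all genes. Of these, 10 were lower, against 16.6% of all genes lower, and 1 was higher, against 18.7% higher. The 10 include mt-Nd4l, which was at 0 in all 4 libraries named withdrawal. It passed the filter on low counts only through libraries named 5 days, so its call adds no support. The 10 also include mt-Atp8, which had 5, 8, 7 and 5 counts in the 4 libraries named withdrawal. It did not pass that filter in the comparison after withdrawal by name, so its call adds no support either. Over the 15 genes the median log2 fold change was -1.15, beside -0.05 over all genes. In 8 of 15 the groups did not overlap, all 8 lower at 10 days and mt-Atp8 among them. The share of all genes without overlap was not computed, so this count has no background beside it.

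**Figure D3:**
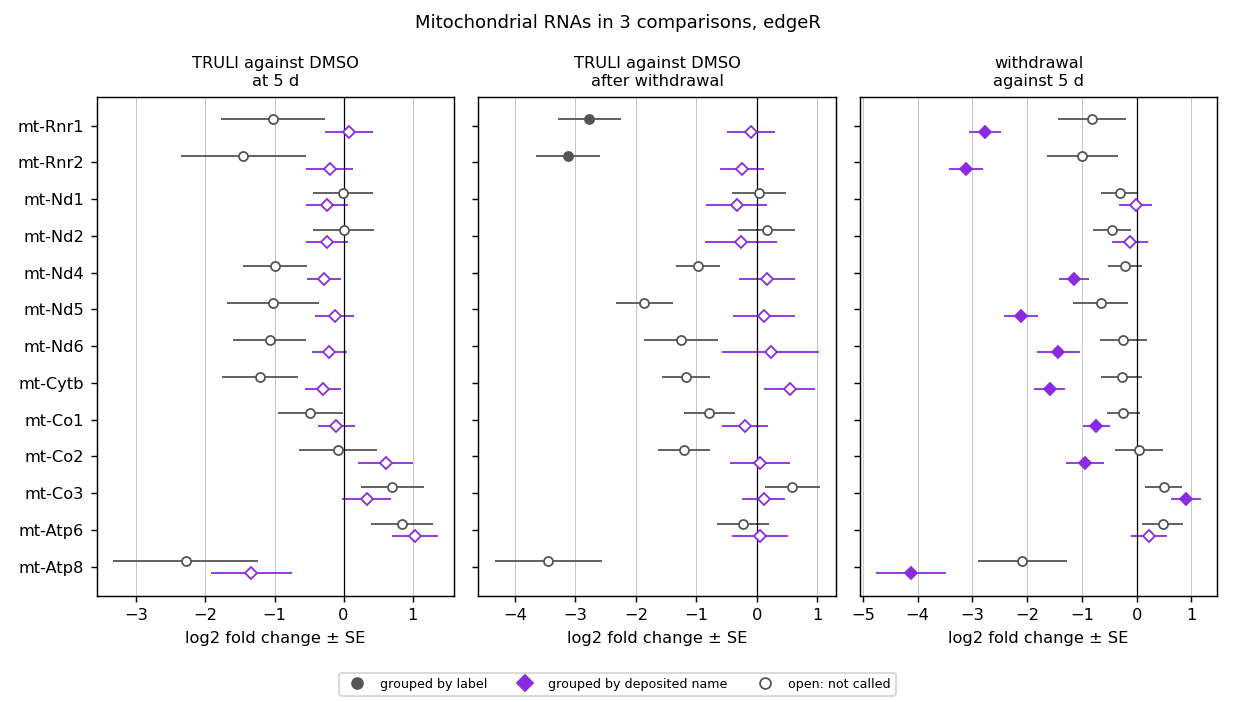
Log2 fold change (edgeR) of 13 mitochondrial RNAs in 3 comparisons, grouped by label and by deposited name. Bars are the standard error derived from the F statistic, and filled points had an adjusted p under 0.05. For mt-Rnr2 in withdrawal against 5 days the value is -0.99 by label and -3.12 by name; mt-Nd3 and mt-Nd4l, which had counts in 5 and 3 of 10 libraries, are left out.

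Both ribosomal RNAs were lower at 10 days by name. mt-Rnr2 stood at 165080, 296530 and 154960 CPM in the controls at 5 days and at 172650, 230290 and 123540 CPM in the 3 named TRULI. In those named control withdrawal it stood at 19480 and 28266 CPM, and in the TRULI withdrawal libraries at 13622 and 26681 CPM. The lowest library named 5 days was above the highest named withdrawal, with a log2 fold change of -3.12 (SE 0.32, adjusted p = 5.57e-05, edgeR). mt-Rnr1 stood at 864.8, 1324 and 905.9 CPM in the controls at 5 days and at 1170, 1527 and 530.9 CPM in the 3 named TRULI. It stood at 143.2 and 177.8 CPM, and 143.5 and 154.6 CPM, in the libraries named withdrawal, with a log2 fold change of -2.77 (SE 0.29, adjusted p = 6.98e-05, edgeR).

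The 7 messengers for complex I, the NADH dehydrogenase, did not move alike by name. mt-Nd5 had 440.6 to 964.3 CPM (median 769.3) in the 6 libraries named 5 days and 102.1, 222.4, 116.6 and 236.4 CPM in the 4 named withdrawal. Its log2 fold change was -2.12 (SE 0.31, adjusted p = 0.000419, edgeR). mt-Nd4 had 630.0 to 1156 CPM (median 752.9) against 213.5, 464.8, 288.5 and 474.1 CPM, a log2 fold change of -1.15 (SE 0.27). Neither gene's groups overlapped. mt-Nd6, the only messenger on the minus strand, had 48.4 to 86.5 CPM (median 55.0) against 10.8, 30.9, 10.8 and 38.0 CPM, a log2 fold change of -1.43 (SE 0.39, adjusted p = 0.0126, edgeR). mt-Nd6 overlaps the end of mt-Nd5 on the other strand by a few bases, and whether reads were counted by strand is not given in the sources used here. Without strand, reads of mt-Nd6 and antisense reads of its stretch cannot be told apart.

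mt-Nd1 and mt-Nd2, the complex I messengers nearest to the rRNAs, were not called in either grouping. mt-Nd1 had 229.6 to 544.8 CPM (median 351.5) in the libraries named 5 days and 236.0, 537.4, 200.2 and 414.3 CPM in those named withdrawal, a log2 fold change of -0.02 (SE 0.30). mt-Nd2 was at -0.13 (SE 0.33). Their groups overlapped throughout. mt-Nd3, with 154.8 counts in all, was at 1.01 (SE 1.48). In the 5 libraries where it was at 0, its near-identical nuclear copy Gm28438, described below, held 23 to 36 counts, and with the copy added the value was 0.39 (SE 0.45, adjusted p = 0.523 by edgeR). mt-Nd4l had counts in 3 libraries, all named 5 days, at 12.4, 19.7 and 7.45 CPM; edgeR called it lower (adjusted p = 0.0292), but its fitted fold change rests on libraries at 0 and is not a bound. In the 7 libraries at 0, 3 of them named 5 days, its identical nuclear copy Gm10222 held 14 to 34 counts, so these zeros do not show absence of the sequence. With the copy added, the pair summed to 9.24 to 28.3 CPM (of counts without rRNA) in the libraries named 5 days and to 2.61 to 6.07 CPM in those named withdrawal, a log2 fold change of -1.34 (SE 0.47, adjusted p = 0.0416 by edgeR). Without the copy, it was not called with DESeq2 (adjusted p = 0.0553) or without the library named control withdrawal replicate 1 (edgeR, adjusted p = 0.0707) or replicate 2 (edgeR, adjusted p = 0.0546). Without any 1 of the 3 libraries that held its counts it did not pass the filter on low counts.

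mt-Cytb, of complex III, had 727.7 to 1471 CPM (median 907.5) in the libraries named 5 days and 207.9, 323.7, 279.4 and 493.9 CPM in those named withdrawal. Its groups did not overlap, and its log2 fold change was -1.59 (SE 0.28, adjusted p = 0.00124, edgeR). Among complex IV messengers, mt-Co1 had 7433 to 12964 CPM (median 8540) against 4775, 7346, 3710 and 6858 CPM. These groups lay close but did not overlap, and the log2 fold change was -0.74 (SE 0.24, adjusted p = 0.0316, edgeR). Its call was lost without control replicate 2 at 5 days (-0.60), or, by deposited name, without control withdrawal replicate 1 (-0.60), TRULI replicate 2 at 5 days (-0.66) or TRULI withdrawal replicate 1 (-0.53). mt-Co2 was at -0.95 (SE 0.35, adjusted p = 0.0472, edgeR) with overlapping groups, 62.3 to 237.9 CPM against 64.0, 99.9, 60.5 and 109.2 CPM. The call of mt-Co2 was lost when any 1 of 8 libraries was left out, all but control replicate 1 at 5 days and the library named control withdrawal replicate 2, with values from -1.05 to -0.66. mt-Co3 was the only member called higher by name, at 0.91 (SE 0.27, adjusted p = 0.0215, edgeR), with 405.4 to 1094 CPM (median 514.6) against 917.4, 1259, 929.4 and 1422 CPM. Its groups overlapped, since 1 library named TRULI at 5 days reached 1094 CPM, and its call was lost without the library named control withdrawal replicate 2 (0.79) or without TRULI withdrawal replicate 2 (0.81). All 3 values depend on how reads were split with the nuclear copies described below. With the copies added, edgeR gave 0.17 for mt-Co3 (adjusted p = 0.569) and -0.64 for mt-Co1 (adjusted p = 0.0571). For mt-Co2 it gave -2.34 (adjusted p = 0.000163).

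Of the ATP synthase messengers, mt-Atp8 stood at 60.3, 46.4 and 9.67 CPM in the controls at 5 days and at 19.7, 18.6 and 6.72 CPM in the 3 named TRULI. It stood at 0.78 and 2.87 CPM, and 1.22 and 1.02 CPM, in the libraries named withdrawal. These 4 values are near the floor of 3 counts, which is 0.48 to 1.22 CPM among the 10 libraries. The log2 fold change of mt-Atp8 was -4.12 (SE 0.64, adjusted p = 0.000538, edgeR). It had 5, 8, 7 and 5 counts in the libraries named withdrawal and did not pass the filter on low counts in the comparison after withdrawal by name. Its call and the size of this decrease therefore add no support. mt-Atp6, which shares its first 43 bases, had 112.3 to 413.6 CPM against 232.3, 383.3, 197.9 and 442.8 CPM, and was at 0.23 (SE 0.33) with overlapping groups. With the counts of its nuclear copy Gm10925 added, mt-Atp6 was at -2.13 (SE 0.34, edgeR).

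Without the 4 libraries of differing condition, the contrast of TRULI withdrawal with 5 days held 6 libraries, and with treatment as a term it set the 2 TRULI withdrawal libraries against 1 TRULI library at 5 days, assumed to vary like the others. edgeR called 3 of 15 mitochondrial genes, all lower, against 2.31% of all genes. They were mt-Rnr1 at -2.98 (SE 0.36, adjusted p = 0.0222), mt-Rnr2 at -3.11 (SE 0.46, adjusted p = 0.0281) and mt-Nd5 at -2.18 (SE 0.46, adjusted p = 0.0472). This contrast does not depend on which source is right for those 4 libraries.

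The make-up of the messenger pool differed beside its size. mt-Co1 held 63.3% to 71.1% of the messenger counts in all libraries. By name, mt-Cytb held 6.48% to 8.07% at 5 days and 2.98% to 4.77% after withdrawal, and mt-Nd5 4.10% to 6.33% and 1.495% to 2.22%. mt-Co3 held 3.005% to 6.94% and 11.6% to 15.9%, and mt-Nd1 2.14% to 2.99% and 3.42% to 4.94%. None of these 4 pairs of ranges overlapped, and neither did those of mt-Nd4, mt-Nd6, mt-Atp8 and mt-Atp6. No share over all genes was computed for such separations, so their number has no background beside it. Those of mt-Co1, mt-Co2, mt-Nd2, mt-Nd3 and mt-Nd4l did. These shares leave out reads given to the nuclear copies described below. For mt-Co3 its copy took 0.78% to 60.6% of the pair's counts in the libraries named 5 days and 0.0034% to 3.37% in those named withdrawal. mt-Atp6 alone held 0.82% to 3.17% of the messenger counts and then 3.38% to 4.16%. Its copy Gm10925 took 55.4% to 93.7% of the pair and then 0%. With that copy added the direction turned, from 916 to 2891 CPM (of counts without rRNA) to 214 to 426 CPM. With mt-Co1 left out, the other 12 messengers took 0.40% to 0.66% of the counts without rRNA in the libraries named 5 days and 0.21% to 0.36% in those named withdrawal.

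**Figure D4:**
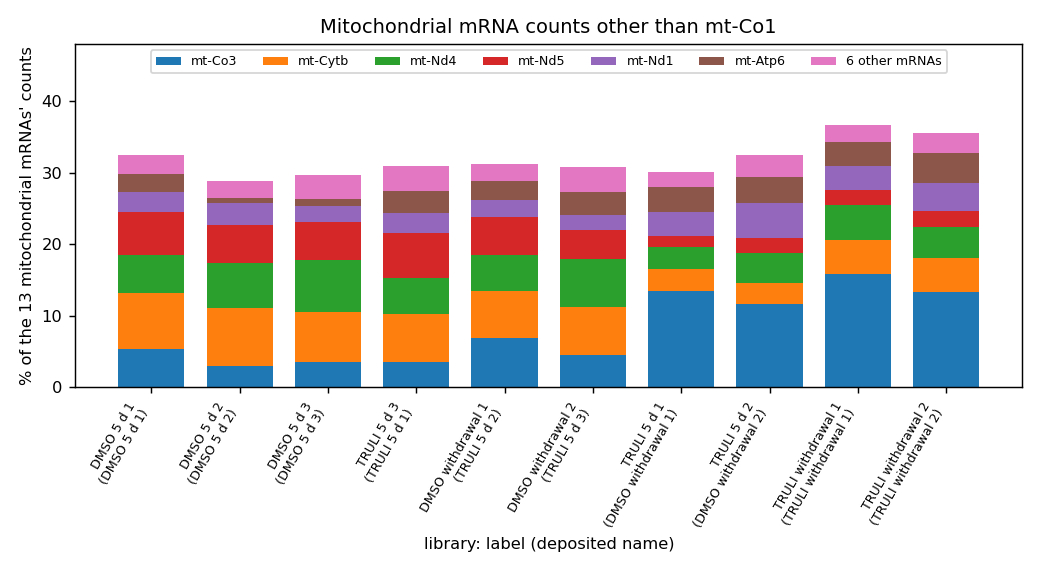
Share of each messenger in the counts of the 13 mitochondrial messengers (%), stacked, without mt-Co1, which holds the remainder; 1 bar per library with its label and, in brackets, its deposited name. mt-Co3 reaches 11.6% to 15.9% in the 4 libraries named withdrawal and 3.005% to 6.94% in the other 6, without the counts given to its nuclear copy.

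Reads of 7 mitochondrial messengers could also be assigned to a nuclear insertion of mitochondrial DNA. Among genes outside chromosome M, 15 matched a mitochondrial rRNA or messenger over at least 80% of their length at 90% identity or more, and 7 of these were at least 99% identical. All 7 lie side by side on the minus strand of chr1:24611535-24616197 (GRCm38), and 5 of them were 100% identical over the aligned length. The 7 held 55536 counts over the 10 libraries, and the other 8 held 5. The remaining pair each differed by 1 base within the aligned length, shown as a capital letter, with positions counted from 1 at the 5′ end of the mitochondrial gene. The first 9 bases of Gm29216 lie outside its aligned stretch of 483 bases. The substitution was A1066T between mt-Co1 and Gm29216, and T3C between mt-Nd3 and Gm28438.
mt-Co1, chrM:6363-6423, plus strand: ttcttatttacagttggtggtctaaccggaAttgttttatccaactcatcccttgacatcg
Gm29216, chr1:24616155-24616197, minus strand: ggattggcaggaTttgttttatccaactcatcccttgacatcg
mt-Nd3, chrM:9459-9491, plus strand: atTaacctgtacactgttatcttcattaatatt
Gm28438, chr1:24613087-24613119, minus strand: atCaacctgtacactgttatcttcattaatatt

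How the tables split reads between these pairs differed from library to library. Gm10925 took 83.0%, 93.7% and 89.1% of the counts of mt-Atp6 and itself in the controls at 5 days and 67.2%, 69.8% and 55.4% in the libraries named TRULI at 5 days. It had 0 counts in all 4 libraries named withdrawal, where mt-Atp6 had 1067 to 2177 counts. For mt-Co2 and Gm28661 the copy took 6.50% to 85.9% in the libraries named 5 days and 0% to 0.017% in those named withdrawal. For mt-Co3 and Gm28437 it took 0.78% to 60.6% and 0.0034% to 3.37%. For mt-Co1 and Gm29216 it took 1.403% to 4.30% and 7.27% to 9.12%. The sequences do not tell the reads of an identical pair apart, so a member's own count is uncertain by the size of its copy's count.

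With the copies' counts added to the members they match, edgeR by deposited name called 10 of 15 members lower at 10 days, against 16.4% of all genes lower, and none higher. The 10 include mt-Atp8, whose few counts after withdrawal are given above. mt-Atp6 with Gm10925 summed to 2214, 2891 and 1291 CPM (of counts without rRNA) in the controls at 5 days, to 1594, 1848 and 916 in the libraries named TRULI at 5 days and to 214 to 426 in those named withdrawal. Its log2 fold change became -2.13 (SE 0.34, adjusted p = 0.000581), where it had been 0.23. mt-Co2 with Gm28661 became -2.34 (SE 0.29, adjusted p = 0.000163). The call of mt-Co3 was lost, at 0.17 (SE 0.21, adjusted p = 0.569), and so was that of mt-Co1, at -0.64 (SE 0.25, adjusted p = 0.0571). The messenger share without rRNA, copies included, differed by -1.14 on the log2 scale between 10 and 5 days by name (exact permutation p = 0.01), and by -0.27 by label (exact permutation p = 0.42).

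**Figure D5:**
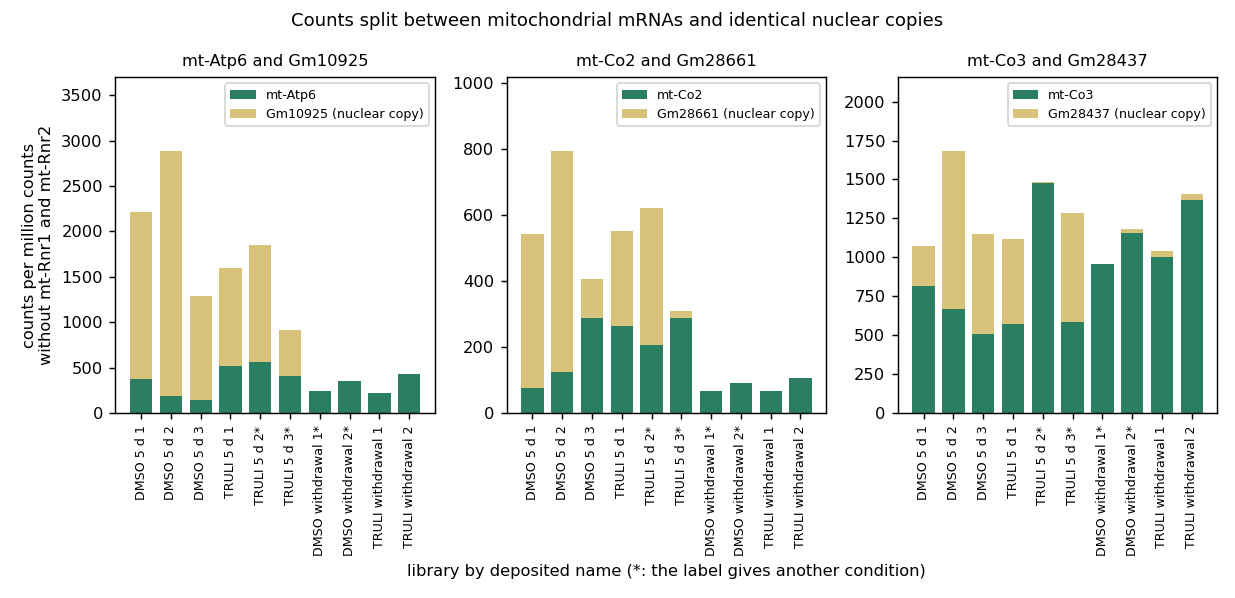
Counts of mt-Atp6, mt-Co2 and mt-Co3 and of their identical nuclear copies, stacked, in CPM of counts other than mt-Rnr1 and mt-Rnr2, 1 bar per library in the order of the deposited names. Gm10925 has no counts in the 4 libraries named withdrawal, where mt-Atp6 and its copy sum to 214 to 426.

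Nuclear-encoded genes that maintain and express the mitochondrial genome were taken from a list of 46. By label, 0 of the 41 tested were called at 5 days by edgeR, against 0.00903% of all genes, with 3 at an unadjusted p under 0.05, and DESeq2 called 1. After withdrawal, 2 of 43 were called by label, against 2.07% of all genes, both higher: Slirp, a stabiliser of mitochondrial messengers, at 2.25 (SE 0.42, adjusted p = 0.0459) and Ppargc1b, a co-activator of nuclear genes for mitochondria, at 4.57 (SE 0.79, adjusted p = 0.0442). Without the library labelled control withdrawal replicate 1, 0 were called, against 0.0609% of all genes, and without replicate 2, 0 were, against 0.136%. In the contrast of 10 with 5 days, 0 of 44 were called by label, against 0.0% of all genes, with 2 at an unadjusted p under 0.05 and 0 called by DESeq2.

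By deposited name, 0 of 42 were called at 5 days, against 3.28% of all genes, and 0 of 42 after withdrawal, against 0.0%, with 2 and 4 at an unadjusted p under 0.05, and DESeq2 called 0 and 2. With the replicate block, 1 of 43 was called at 5 days, against 9.73% of all genes. In the contrast of 10 with 5 days, 8 of 44 were called by name, 5 higher and 3 lower, a share below the 35.4% of all genes. The list's median log2 fold change was 0.02, beside -0.05 over all genes. The 5 with the lowest p are named here. Slirp rose by 2.89 (SE 0.37) and its binding partner Lrpprc fell by 2.10 (SE 0.41) on the log2 scale. Slirp stood at 6.39 to 18.4 CPM in the libraries named 5 days and at 42.6 to 145.8 CPM in those named withdrawal, and Lrpprc at 31.4 to 119.1 CPM and 9.34 to 26.8 CPM, neither with overlap. Dguok and Twnk, of mitochondrial DNA maintenance, rose by 1.99 (SE 0.24) and 1.65 (SE 0.41), and Ppargc1b by 2.67 (SE 0.71). Ppargc1b stood at 69.3 and 20.9 CPM in the TRULI withdrawal libraries, at 5.95 and 4.31 CPM in those named control withdrawal and at 1.34 to 4.96 CPM in the other 6. The 5 adjusted p values by edgeR were between 0.000142 and 0.0118.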

How the data were processed

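RNA of sorted cells, enriched for poly(A) per the labels, was sequenced as paired-end reads in 10 libraries: by label 3 DMSO and 3 TRULI at 5 days, 2 and 2 after withdrawal. Reads were mapped to GRCm38 with STAR, per the study's methods. The authors deposited 1 table per library of expected counts per gene, not scaled to depth, in the form RSEM writes; the counting program, its treatment of multiply mapping reads and its use of strand are not given in the sources used here. Each table also gives length and effective length. An expected count divides reads that fit several genes, which bears on members with nuclear copies.

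Here, expected counts were rounded and fitted over all genes with edgeR 4.0.16 (R 4.3.3, TMM, filterByExpr, quasi-likelihood F test, Benjamini-Hochberg, adjusted p under 0.05), with DESeq2 1.42.0 as an alternative. Both were run on simulated counts, with 200 genes changed by a fold of 4 at a dispersion of 0.1. No shift of the rRNA share was built in, so this does not test them under the shift seen by deposited name. The SE of an edgeR log2 fold change was derived as its absolute value over the square root of the F statistic. CPM were TMM-scaled unless stated. Shares were compared by exact permutation of libraries on mean log2 values, with adjustment over 12 tests in each grouping. Wilson intervals (95%) and floors of 3 counts cover counting error only. Copies were sought with blastn 2.17.0+ among GENCODE M21 transcripts, at 90% identity and 80% cover. Of 48709 genes, 48349 matched that annotation. No 2 libraries agreed within sampling noise (lowest chi-square per degree of freedom 15.26).

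Replicate numbers in the deposited names were taken as pairs at 5 days, from correlations of deviations in these same data (0.332, 0.156 and 0.269). Those of the labels were not. The study's methods describe no pairs, so fits with the block rest on this choice. The members and lists were chosen with earlier results of these data known. Both rRNAs, all messengers, copies of at least 100 counts, tRNAs of at least 10 counts (none) and at most 5 listed nuclear genes per comparison, by lowest p, were named; mt-Ts2 and mt-Tl1, shown for length, were chosen after values were seen. Leaving out libraries, other scalings, the replicate block and, chosen after seeing the data, adding the copies, alternatives by deposited name, full gene length and the messengers other than mt-Co1 were tried.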

Additional observations from a re-analysis of the deposited data

How the results depend on the processing

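With the condition of the deposited names in place of the labels, the contrast of 10 with 5 days passed the threshold at -3.16 for the rRNA share, -0.74 for the messenger share of all counts, -1.02 without rRNA and -2.42 for the ratio, and members called went from 0 to 11 (10 with the replicate block). In that exchange the calls after withdrawal went from 2 to 0 (0 with the block), those at 5 days stayed at 0 (2 with the block), and listed nuclear genes called went to 0 after withdrawal (0 with the block), 8 in the contrast of days (6 with the block) and 1 at 5 days with the block. Without the 4 libraries of differing condition, 3 members and 1 listed gene were called in the contrast of days, and mt-Rnr1 at 5 days turned to 0.19.

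By label, the replicate block called 6 members and 5 listed genes after withdrawal. The correlations of same-numbered libraries were 0.192 for both pairs there, where 2 libraries per group force equal values. At 5 days they were -0.121, 0.049 and -0.164, so the labels' numbers were not taken as pairs. After withdrawal by label, DESeq2 called 5 members and 5 listed genes (1477 of all genes, against 253 with edgeR), library totals without TMM 1 member, no filter on low counts 6, and 1 fit of all 10 libraries 0. With no filter, 2 members were called at 5 days and 1 in the contrast of days. DESeq2 called 1 listed gene at 5 days by label (285 of all genes, against 1), and by name 1 member at 5 days (709 of all genes, against 378) and 2 listed genes after withdrawal. With the block, 2 members and 1 listed gene were called at 5 days by name (1187 of all genes). The messenger share without mt-Co1 turned to 0.00056 at 5 days and to 0.15 after withdrawal by name. The causes of these changes were not tested. In this section, a count of members or listed genes with no count over all genes beside it has no background. Such a count is not a result particular to the members or listed genes.

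Leaving out each library in turn, members called by label ranged from 0 to 7 at 5 days and from 1 to 10 after withdrawal, and listed genes from 0 to 5 and from 0 to 12; the 7 and the 5 came without TRULI replicate 3, the 0 listed genes after withdrawal without either control library, and the 12 and 11 without TRULI withdrawal replicates 1 and 2. By name, members ranged from 0 to 1 at 5 days (1 without control replicate 1) and from 8 to 10 in the contrast of days, and listed genes there from 7 to 14 (14 without control withdrawal replicate 1). In the same contrast the rRNA share ranged from -3.36 to -2.97, the messenger share from -0.91 to -0.57 of all counts and from -1.20 to -0.85 without rRNA, and the ratio from -2.47 to -2.37; fewer libraries raise the smallest p, so the adjusted p could not pass. By name the rRNA share ranged from -0.32 to 0.12 at 5 days and from -0.62 to 0.16 after withdrawal, the messenger share of all counts from -0.14 to 0.13 and from -0.40 to 0.28, and without rRNA from -0.21 to 0.16 and from -0.41 to 0.28. By label the messenger share of all counts ranged from -0.32 to 0.024 in the contrast of days.

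In the contrast of days by name, 7 members were called under all 17 alternatives: mt-Rnr1, mt-Rnr2, mt-Atp8, mt-Cytb, mt-Nd4, mt-Nd5 and mt-Nd6. The call of mt-Atp8 adds no support, because of its few counts after withdrawal. The share of all genes called under all 17 was not computed, and the main fit called 35.4% of all genes. Of the 17, 10 left out 1 library each and so share most of their libraries.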
